A study of Mus musculus with 6 samples.

Results

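The 10 genes described here are immune checkpoint genes, 5 receptors (Pdcd1, Lag3, Havcr2, Tigit and Ctla4) and 5 ligands (Cd274, Pdcd1lg2, Pvr, Lgals9 and Nectin2). They were taken by symbol from the raw count tables, and all 10 were present among the 28649 gene names of each of the 6 single-cell RNA libraries. Of these, 3 libraries were labelled shPgk1, from 4T1 mouse mammary carcinoma cells given lentivirus with a short hairpin RNA against Pgk1, a glycolytic enzyme, and 3 were labelled shNC, from 4T1 cells given a hairpin with no target. Both groups had thus been transduced, for 48 hours, before 7 days of selection in 2 µg/mL puromycin. The treatment tag reads PGK1 knockdown for the shPgk1 libraries and wild type for the shNC libraries, although the shNC cells carried the control vector. The series title names triple-negative breast cancer and M2-like macrophages, and the libraries held macrophages, T cells, fibroblasts and endothelial cells beside epithelial cells, but the labels used here describe no host animal, strain, age or tumour site.

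Checkpoint receptors sit on T and NK cells and, when a ligand on a neighbouring cell binds them, lower the activity of the cell that carries them. PD-1 (Pdcd1) binds PD-L1 (Cd274) and PD-L2 (Pdcd1lg2), TIGIT (Tigit) binds the poliovirus receptor (Pvr) and nectin-2 (Nectin2), and TIM-3 (Havcr2) has galectin-9 (Lgals9) among its reported ligands. CTLA-4 (Ctla4) competes with the costimulatory receptor CD28 for CD80 and CD86 and is constitutively expressed by regulatory T cells, and LAG-3 (Lag3) binds MHC class II. In tumours, CD8 T cells under lasting stimulation carry several of these receptors at once, and ligands such as PD-L1 are induced by interferon gamma on tumour and myeloid cells.

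The libraries held 111982862, 116429830 and 128933960 unique molecular identifiers (UMIs, 1 per captured RNA molecule) in the shPgk1 group and 113157507, 78778073 and 91676105 in the shNC group, and 41434 cells were kept. Levels are given as CPM, the UMIs of a gene per 1000000 UMIs of all kept cells of a set, summed per library. The target of the hairpin, Pgk1, was not reduced where the label says it should be. It stood at 245.1, 299.0 and 324.4 CPM in tumour-like cells of the libraries labelled shPgk1, against 285.1, 243.4 and 217.2 CPM in tumour-like cells of the shNC libraries, so the counts do not bear out the label and the groups are named by label only. shPgk1 replicate 1 stood apart from the other shPgk1 libraries. Over all genes its chi-square per degree of freedom was 119 against shPgk1 replicate 2 and 91.9 against shPgk1 replicate 3, whereas those 2 differed by 24.1. Against shNC replicates 1, 2 and 3 it gave 104, 106 and 126, where the other 2 shPgk1 libraries gave 208 to 273. The makeup also differed, with tumour-like cells at 44.1%, 48.3% and 46.5% of kept cells in shPgk1 and 26.0%, 31.3% and 39.2% in shNC libraries. Macrophage-like cells made up 30.2%, 21.6% and 24.8% in shPgk1 and 36.7%, 33.9% and 33.8% in shNC libraries. Classes were named from markers of the same cells, among them Epcam and Krt8 in tumour-like cells, Csf1r and Cd68 in macrophage-like cells, Cd3e in T-like cells, Col1a2 in fibroblast-like cells and Cdh5 in endothelial-like cells. Inside the T or NK-like clusters, barcodes were gated on UMIs as CD8 T (995 cells), regulatory T (416 cells, with Foxp3), Foxp3-negative CD4 T (266 cells) and NK (91 cells, with Ncr1). A further 1068 cells of these clusters fell in none of the gates.

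Among the receptors, Pdcd1, Lag3 and Havcr2 were highest in CD8 T-like cells, and Ctla4 and Tigit were highest in regulatory T-like cells. Over the 6 libraries, Pdcd1 ranged from 205.6 to 284.4 CPM in CD8 T-like cells with a median of 241.3, and 74.3% of those cells held a Pdcd1 UMI. In regulatory T-like cells Pdcd1 ranged from 66.89 to 120.5 CPM around a median of 88.61, wholly below the CD8 T-like range. The Foxp3-negative CD4 T-like range, 43.07 to 196.6 CPM, overlapped the regulatory T-like range. NK-like cells stood between 0 and 104.8 CPM with a median of 3.328, and 4 of 91 of them held a UMI.

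Havcr2 ranged from 65.98 to 103.8 CPM in CD8 T-like cells, with a median of 79.56. The NK-like range, 0 to 88.49 CPM, overlapped it, while the Foxp3-negative CD4 T-like range (7.83 to 37.1 CPM) and the regulatory T-like range (10.39 to 23.38 CPM) did not. Lag3 ranged from 19.86 to 34.75 CPM in CD8 T-like cells, from 4.635 to 28.77 CPM in regulatory T-like cells and from 0 to 29.68 CPM in Foxp3-negative CD4 T-like cells, so neighbouring ranges overlapped. In NK-like cells 3 of 91 held a Lag3 UMI.

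Ctla4 ranged from 718.6 to 1107 CPM in regulatory T-like cells, median 855.8, where 92.6% of cells held a UMI. That range did not overlap the 160.5 to 560.2 CPM of Foxp3-negative CD4 T-like cells, and CD8 T-like cells, at 135.9 to 172.6 CPM, overlapped those. Tigit ranged from 21.7 to 39.35 CPM in regulatory T-like cells and from 3.806 to 10.69 CPM in CD8 T-like cells, 2 ranges that did not overlap. Foxp3-negative CD4 T-like cells (0 to 48.89 CPM) and NK-like cells (0 to 52.66 CPM) spread across both.

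**Figure D1:**
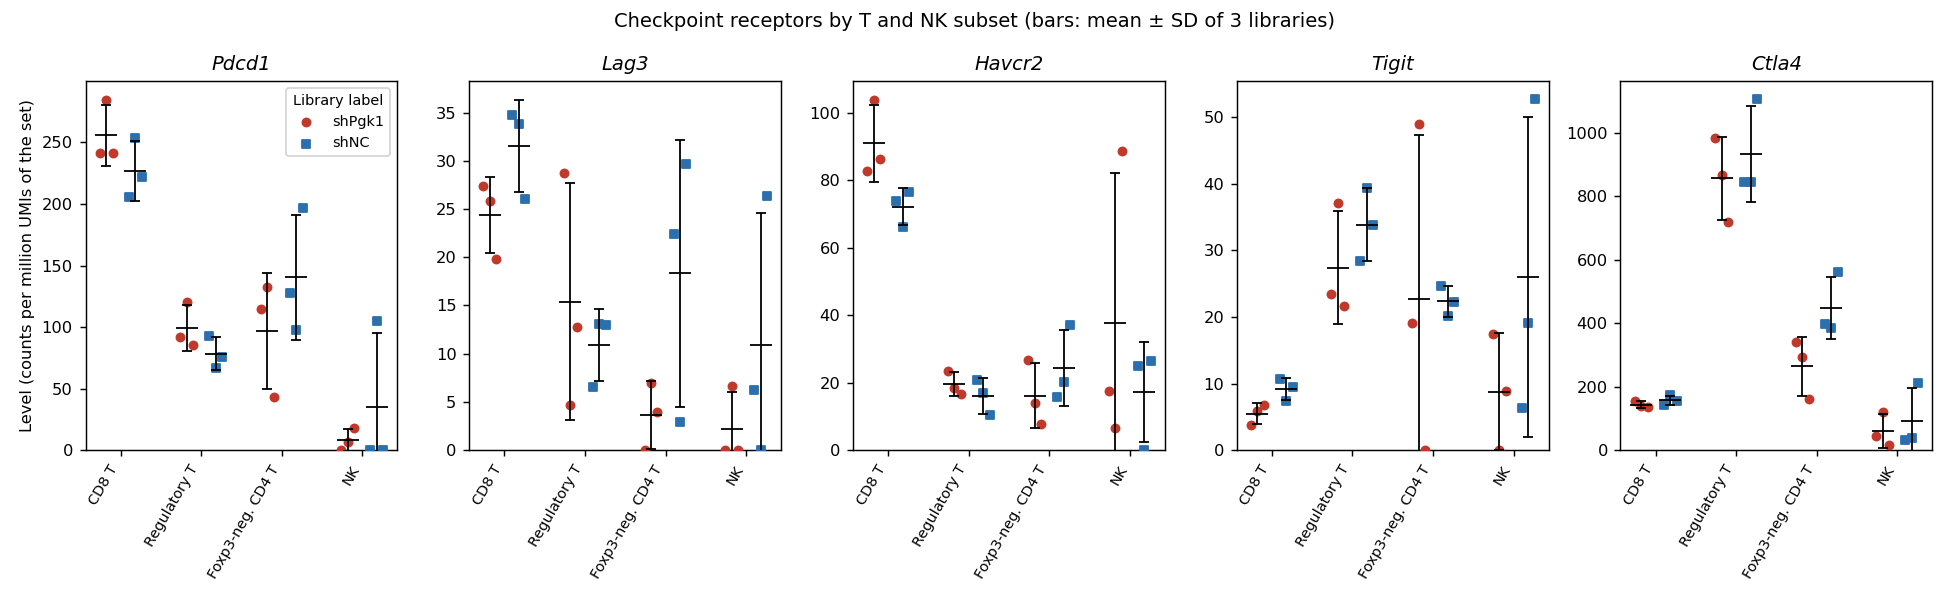
Level of the 5 checkpoint receptors (CPM, linear axis, a panel each) in CD8 T, regulatory T, Foxp3-negative CD4 T and NK-like cells, with 1 point per library, shPgk1 left of shNC, and bars for the mean ± SD of 3 libraries, cut at 0 where they would run below it. Pdcd1 and Havcr2 stand highest in CD8 T-like cells and Ctla4 in regulatory T-like cells, and the NK-like values, from 91 cells, scatter widely.

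The gates used none of the 10 genes, so the subsets were tested against each other with library as a term, in edgeR's quasi-likelihood test with Benjamini-Hochberg adjustment over all 5562 genes. Lag3, Pvr and Nectin2 were too low for the filter on counts, which left 7 of the 10. In regulatory T-like over CD8 T-like cells 6 of the 7 passed an adjusted p of 0.05, where 42.9% of all genes did, so the count is read against a high background. Ctla4 was higher by 2.27 ± 0.19 on the log2 scale (SE; adjusted p = 2.81e-12) and Tigit by 1.75 ± 0.31 (adjusted p = 1.34e-05). Cd274 was also higher there, by 0.94 ± 0.16 (adjusted p = 1.12e-05), and Lgals9 by 0.54 ± 0.18 (adjusted p = 0.0129). Havcr2 fell by 2.41 ± 0.24 (adjusted p = 1.55e-10) and Pdcd1 fell by 1.73 ± 0.27 (adjusted p = 2.91e-05), both relative to CD8 T-like cells. Pdcd1lg2 gave −0.25 ± 0.22 and did not pass.

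Between the CD4 subsets fewer genes moved. In regulatory T-like over Foxp3-negative CD4 T-like cells, 10.1% of all genes passed and 1 of the 7 did, Ctla4, higher by 1.26 ± 0.19 (adjusted p = 9.65e-06). Tigit gave 0.46 ± 0.38 (adjusted p = 0.52) and Pdcd1 −0.52 ± 0.32 (adjusted p = 0.361). In CD8 T-like over Foxp3-negative CD4 T-like cells, 46.8% of all genes and 5 of the 7 passed. Havcr2 was higher by 2.14 ± 0.29 (adjusted p = 1.6e-07) and Pdcd1 by 1.22 ± 0.29 (adjusted p = 0.0016). Tigit fell by 1.30 ± 0.40, Ctla4 fell by 1.01 ± 0.19 and Cd274 fell by 0.81 ± 0.18 in CD8 T-like cells, with adjusted p of 0.00693, 5.79e-05 and 0.000331.

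In CD8 T-like over NK-like cells, 27.4% of all genes and 4 of the 7 passed. The NK-like sums rest on few cells, 8 to 29 a library and under 20 in 5 of the 6 libraries. Pdcd1 was higher by 3.71 ± 0.49 (adjusted p = 1.06e-05), Havcr2 by 1.79 ± 0.37 (adjusted p = 0.000329) and Ctla4 by 1.44 ± 0.28 (adjusted p = 0.000181), while Lgals9 fell by 0.90 ± 0.26 (adjusted p = 0.00706). With no filter on low counts Lag3 could be tested too, and it fell by 1.43 ± 0.28 in regulatory T-like relative to CD8 T-like cells (adjusted p = 6.46e-06, where 14.0% of all genes passed and their median was −0.20). It was higher by 1.62 ± 0.35 in CD8 T-like over Foxp3-negative CD4 T-like cells (adjusted p = 5.24e-05, where 14.6% passed and the median was 0.30). The subsets differed in depth, with median UMIs per cell of 12674 in CD8 T, 5390 in regulatory T, 5073.5 in Foxp3-negative CD4 T and 4585 in NK-like cells, and the part of that depth in the differences was not tested.

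Other genes of the checkpoint pathways were counted in the same comparisons of subsets. Of 18 other checkpoint and costimulatory receptors, 13 were tested in regulatory T-like over CD8 T-like cells, where 42.9% of all genes passed, and all 13 did, 9 higher and 4 lower, with a median log2 fold of 1.23 against −0.01 over all genes. The higher ones included the costimulatory TNF receptors Tnfrsf4 (OX40, 3.20 ± 0.21, adjusted p = 7.27e-14) and Tnfrsf18 (GITR, 2.14 ± 0.19, adjusted p = 7.88e-12) and the CD28 relative Icos (2.33 ± 0.19, adjusted p = 1.08e-12). Cd96 and Cd226, receptors that share ligands with Tigit, were among the 4 lower, at −2.93 ± 0.30 (adjusted p = 1.5e-10) and −2.74 ± 0.40 (adjusted p = 5.23e-06), with the NK receptor Klrc1 at −5.88 ± 0.36 (adjusted p = 1.84e-14). Of 16 exhaustion and T cell transcription factors, 15 were tested, 6 rose and 4 fell. Tox, a factor of exhausted T cells, was higher by 3.10 ± 0.21 (adjusted p = 6.1e-13) and Batf by 2.00 ± 0.16 (adjusted p = 4.8e-13), while Eomes, a factor of cytotoxic cells, stood at −3.41 ± 0.41 (adjusted p = 8.71e-09). Foxp3 was 1 of the 6, and the gate itself used it. Of 18 interferon gamma response genes, 16 were tested, 10 rose and 1, Irf8, fell, and the kinase Jak2 (2.01 ± 0.15, adjusted p = 5.96e-14) was among those that rose. Of the other ligands 8 were tested, 2 rose and 3 fell, among them Cd80, a ligand of Ctla4, higher by 0.70 ± 0.23 (adjusted p = 0.0133).

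The same lists were counted in the other comparisons of subsets. In regulatory T-like over Foxp3-negative CD4 T-like cells, where 10.1% of all genes passed, 5 of 13 other receptors rose and 3 fell, with Tnfrsf4 at 1.10 ± 0.21 (adjusted p = 0.000317) and Cd27 at 1.30 ± 0.22 (adjusted p = 5.77e-05) among those that rose. There 1 of 8 other ligands rose, Cd80, by 1.99 ± 0.35, 4 of 15 transcription factors rose, 1 of them Foxp3, which the gates used, and 4 fell, among them Tcf7, a factor of naive and memory-like T cells, at −3.70 ± 0.35, and of 16 interferon gamma response genes the receptor chain Ifngr2 fell, at −1.25 ± 0.32 (adjusted p = 0.00668). In CD8 T-like over Foxp3-negative CD4 T-like cells, where 46.8% of all genes passed, 3 of 13 other receptors rose and 6 fell, 4 of 8 ligands rose and 1 fell, 3 of 15 transcription factors rose and 7 fell, and 1 of 16 interferon gamma response genes, Irf8, rose and 10 fell. In CD8 T-like over NK-like cells, where 27.4% passed, 4 of 13 other receptors rose and none fell, 2 of 8 ligands rose, 1 of 15 transcription factors, Irf4, rose and 7 fell, and 1 of 16 interferon gamma response genes, Nlrc5, rose and 5 fell.

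The ligands were spread over lineages in different orders. By CPM, Cd274 was highest in neutrophil-like and dendritic-like cells, Pdcd1lg2 in dendritic-like cells, and Lgals9 and Nectin2 in endothelial-like cells, while the Pvr ranges of neighbouring classes overlapped. The promoter sequences of Cd274, Pdcd1lg2 and Lgals9 are shown because the first 2 are neighbours on chromosome 19 whose levels were high in overlapping myeloid classes, and the last 2 each held 1 of the motifs searched. They are the 250 bases before each gene's start in RefSeq, mouse build GRCm38.p6, 5′ to 3′ on the gene's strand, and capitals mark a motif match. Cd274 lies at chr19:29367188-29367437 and Pdcd1lg2 at chr19:29410669-29410918, both on the plus strand with 43481 bases between their starts, and Lgals9 at chr11:78984925-78985174 on the minus strand.
Cd274: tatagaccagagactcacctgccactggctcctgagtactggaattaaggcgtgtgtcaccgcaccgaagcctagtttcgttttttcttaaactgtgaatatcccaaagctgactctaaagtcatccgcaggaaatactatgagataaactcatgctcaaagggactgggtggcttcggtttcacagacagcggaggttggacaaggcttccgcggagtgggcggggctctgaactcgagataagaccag
Pdcd1lg2: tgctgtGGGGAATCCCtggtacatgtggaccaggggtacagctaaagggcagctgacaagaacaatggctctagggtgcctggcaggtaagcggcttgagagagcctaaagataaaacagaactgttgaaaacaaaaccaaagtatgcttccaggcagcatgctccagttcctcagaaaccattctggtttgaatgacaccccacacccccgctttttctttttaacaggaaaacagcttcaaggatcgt
Lgals9: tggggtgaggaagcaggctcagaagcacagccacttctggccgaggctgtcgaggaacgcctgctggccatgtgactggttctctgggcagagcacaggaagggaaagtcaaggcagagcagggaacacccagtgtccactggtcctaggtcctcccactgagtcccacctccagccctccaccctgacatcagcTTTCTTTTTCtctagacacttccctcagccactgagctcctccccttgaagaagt
The motifs searched on both strands were the interferon regulatory factor motif (GAAA, any 2 bases, GAAA), the STAT motif TTCNNNGAA and the NF-kB consensus motif. Promoters were matched by symbol for 8 of the 10 genes, all but Lag3 and Pvr. Pdcd1lg2 held the NF-kB motif, beginning 244 bases before its start, and Lgals9 held the interferon regulatory factor motif on the opposite strand, beginning 55 bases before its start. No other match was found in the 8 windows. Over 32851 RefSeq promoters of the same length, 2.98% held the interferon regulatory factor motif, 7.02% the STAT motif and 7.25% the NF-kB motif. A match here describes the letters of the window and nothing more.

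Cd274 ranged from 389.0 to 887.7 CPM in neutrophil-like cells, with a median of 605.1, and these were the shallowest cells, with a median of 1742 UMIs. Mature dendritic-like cells, gated on Ccr7 and Ccl22 inside the dendritic-like cluster, followed at 358.7 to 443.1 CPM. Conventional dendritic-like cells ranged from 243.5 to 366.0 CPM and macrophage-like cells from 171.5 to 349.6 CPM, and each neighbour in this order overlapped the next. The neutrophil-like lead was not seen in shares of cells with a Cd274 UMI after each cell was thinned to 3000 UMIs. These were 50.3% of neutrophil-like (340 cells left), 51.0% of conventional dendritic-like and 44.6% of macrophage-like cells. Tumour-like cells ranged from 17.35 to 72.33 CPM and fibroblast-like cells from 16.65 to 66.48 CPM, both below the T or NK-like range of 75.66 to 113.4 CPM. Macrophage-like cells, 30.1% of kept cells, carried 68.2% of all Cd274 UMIs, and tumour-like cells, 39.3% of kept cells, carried 14.9%. Classes come from clusters of the same cells, so these levels are a description without a test.

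Pdcd1lg2, the second ligand of PD-1, ranged from 105.3 to 151.2 CPM in mature dendritic-like cells and from 82.79 to 106.3 CPM in conventional dendritic-like cells. Both stood above the macrophage-like range of 23.24 to 58.62 CPM. Tumour-like, fibroblast-like and endothelial-like cells stood at or below 8.797 CPM in every library. Across 14 classes and subsets the correlation of log2(CPM + 1) between Cd274 and Pdcd1lg2 was 0.694, given as a description since the points share libraries.

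Lgals9 ranged from 220.1 to 286.1 CPM in endothelial-like cells, clear of the 104.1 to 129.4 CPM of macrophage-like cells next in order. With gates on a few genes in place of clusters that separation was lost, at 96.21 to 216.4 CPM in endothelial and 99.79 to 119.7 CPM in macrophage barcodes. Tumour-like cells had 50.65 to 78.06 CPM. Nectin2 ranged from 125.0 to 160.4 CPM in endothelial-like cells, from 72.29 to 89.7 CPM in fibroblast-like cells and from 35.33 to 50.02 CPM in tumour-like cells, and the first 2 ranges stood apart from those that followed. With gates, the endothelial range of Nectin2, 21.87 to 125.4 CPM, overlapped the fibroblast range of 46.49 to 65.81 CPM. T or NK-like cells had the lowest Nectin2 range, 6.406 to 10.7 CPM. Pvr, which binds Tigit with Nectin2, had its highest mean in mature dendritic-like cells (29.78 to 55.94 CPM), but every neighbouring pair in its order overlapped down to T or NK-like cells at 9.901 to 20.44 CPM. Tumour-like cells, with 20.02 to 30.25 CPM, stood at 100% of the level over all cells.

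**Figure D2:**
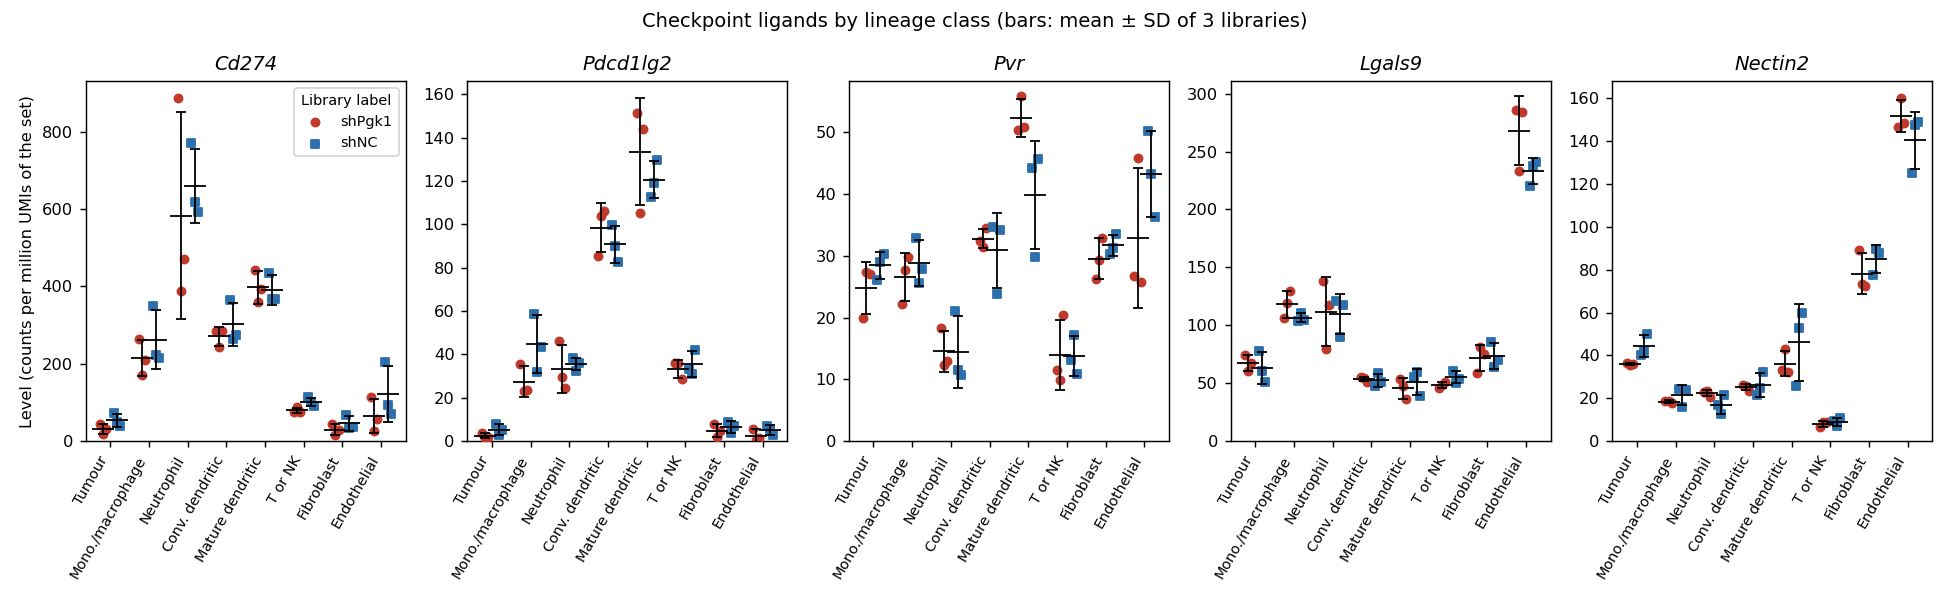
Level of the 5 checkpoint ligands (CPM, linear axis, a panel each) in 8 lineage classes, with 1 point per library, shPgk1 left of shNC, and bars for the mean ± SD of 3 libraries. Cd274 and Pdcd1lg2 stand highest in myeloid classes, Lgals9 and Nectin2 in endothelial-like cells, and the Pvr ranges of neighbouring classes overlap.

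Havcr2 differed from the other 4 receptors in having its highest mean outside T or NK-like cells. It ranged from 73.4 to 105.7 CPM in conventional dendritic-like cells, from 45.62 to 95.58 CPM in mature dendritic-like cells, from 46.68 to 77.51 CPM in T or NK-like cells and from 50.16 to 63.23 CPM in macrophage-like cells, all overlapping in turn. Macrophage-like cells carried 66.7% of all Havcr2 UMIs and T or NK-like cells 10.1%. By contrast, T or NK-like cells carried 84.5% of Pdcd1 UMIs, and CD8 T-like cells alone 63.9%. Lag3 stood at 13.8 to 22.88 CPM in T or NK-like cells and at 3.145 to 5.004 CPM in macrophage-like cells, which by their number carried 40.6% of its UMIs, against 34.1% in T or NK-like cells.

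RNA free in the droplets can place UMIs of T cell genes in other cells, so the level in tumour-like cells was set against the level over all kept cells. For 6 T cell markers tumour-like cells stood at 13.1% to 24.7% of that level, and Pdcd1, at 13.9%, lay in the same range. Ctla4 stood at 83.8% (79.1% to 96.3% over libraries) and Tigit at 87.1% (70.4% to 104%), both above every T cell marker. Ctla4 ranged from 26.35 to 48.63 CPM in tumour-like cells and its means in the other 6 classes outside T or NK cells lay between 19.04 and 25.61 CPM, where T or NK-like cells averaged 263. After thinning each cell to 3000 UMIs, 9.89% of tumour-like cells held a Ctla4 UMI, against 5.86% of macrophage-like and 6.05% of fibroblast-like cells. The same share was 84.6% in regulatory T-like and 34.2% in CD8 T-like cells. Thinned shares of cells with a Tigit UMI were 0.314% in tumour-like and 11.2% in regulatory T-like cells. What the Ctla4 and Tigit counts outside T cells come from was not tested.

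Receptors were then read per cell in CD8 T-like cells. At full depth, 70.9% ± 8.81 of cells held UMIs of at least 2 of the 5 receptors in shPgk1 libraries and 73.2% ± 3.45 in shNC libraries (SD, n = 3 each, exact permutation p = 0.8, two-sided). Depth sets such shares, so cells were thinned to 3000 UMIs, which left 923 cells and left out 72. Then the share with at least 2 receptors was 31.34%, 29.70% and 32.20% in shPgk1 libraries, against 31.29%, 30.85% and 33.33% in shNC libraries. The difference was −0.743 percentage points (exact permutation p = 0.6), the 6 libraries ranged from 29.70% to 33.33%, and the groups overlapped. At least 3 receptors were seen in 7.96%, 3.64% and 6.78% of cells in shPgk1 libraries and 6.12%, 7.45% and 7.07% in shNC libraries, a difference of −0.755 percentage points (exact permutation p = 0.8). With 3 libraries a group the smallest p this test can give is 0.1. Pooled over libraries, 30.1% of CD8 T-like, 31.4% of regulatory T-like, 19.0% of Foxp3-negative CD4 T-like and 4.55% of NK-like cells held at least 2 receptors, against 0.409% of tumour-like cells, which should lack most of them.

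Single receptors were also read in thinned cells. Pdcd1 UMIs were held by 47.7% of CD8 T-like, 21.2% of regulatory T-like, 18.1% of Foxp3-negative CD4 T-like and 1.52% of NK-like cells, and by 0.402% of tumour-like cells. Havcr2 UMIs were held by 20.6% of CD8 T-like, 6.65% of regulatory T-like, 5.37% of Foxp3-negative CD4 T-like and 3.03% of NK-like cells, against 2.39% of tumour-like cells. Within CD8 T-like cells, Lag3 and Havcr2 UMIs were found together in 2.38% of cells where the product of their shares was 1.52%, and Pdcd1 with Havcr2 in 10.9% where the product was 9.81%. Pdcd1 with Ctla4 was found in 16.6% of cells, close to the product of 16.3%.

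**Figure D3:**
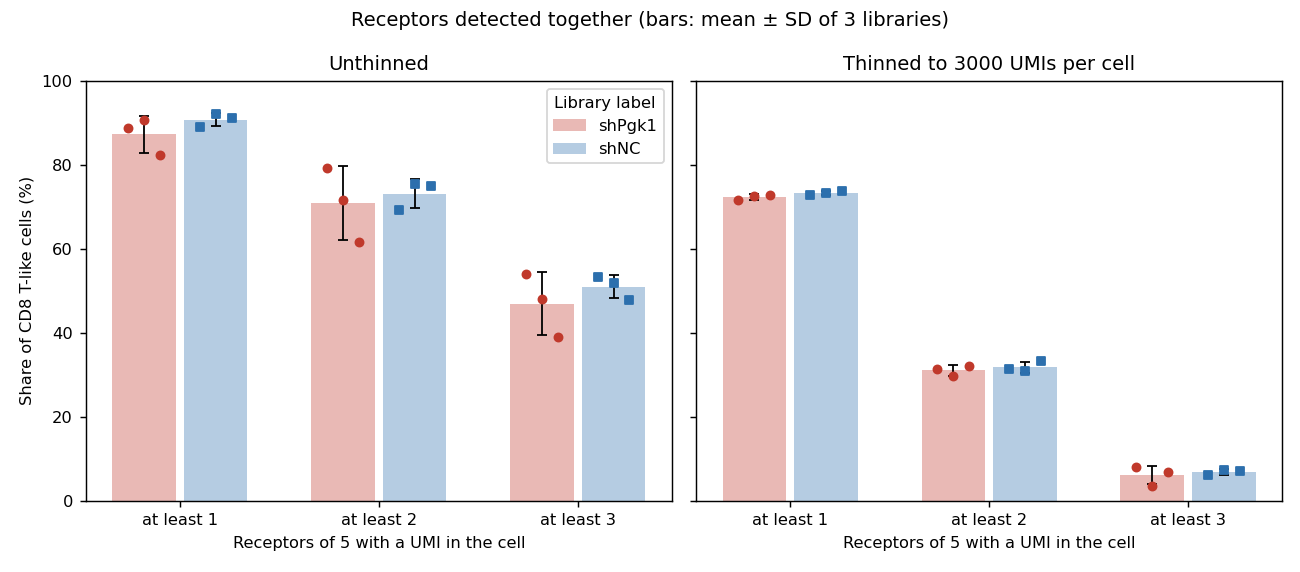
Share of CD8 T-like cells (%) with UMIs of at least 1, 2 or 3 of the 5 receptors, unthinned (left) and thinned to 3000 UMIs per cell (right), with 1 point per library, shPgk1 left of shNC, and bars for the mean ± SD of 3 libraries. The groups overlap at each count, and thinning lowers the share with at least 2 receptors to 31.1% in shPgk1 and 31.8% in shNC libraries.

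Over all kept cells, 9 of the 10 genes had a negative log2 fold in shPgk1 over shNC libraries, but none passed an adjusted p of 0.05 in edgeR, where 16.7% of all genes did. At an unadjusted p of 0.05, 5 of the 10 passed. Their median log2 fold was −0.46, beside −0.05 over all genes. In 5 of the 10 genes every shPgk1 library lay below every shNC library, where the groups did not overlap for 41.6% of all genes. In sums over all cells, fewer cells that carry a gene and less of its RNA per cell cannot be told apart, and macrophage-like cells made up a smaller share of every shPgk1 library than of any shNC library.

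Among the receptors, Havcr2 had 28.44, 19.32 and 22.31 CPM in shPgk1 libraries, against 37.65, 34.67 and 31.52 CPM in shNC libraries (−0.50 ± 0.14 on the log2 scale, adjusted p = 0.0523). Ctla4 had 39.59, 28.94 and 29.89 CPM in shPgk1, against 44.25, 44.50 and 50.47 CPM in shNC libraries (−0.43 ± 0.13, adjusted p = 0.0611). Tigit had 1.342, 1.262 and 1.252 CPM in shPgk1, against 2.257, 2.036 and 1.645 CPM in shNC libraries (−0.55 ± 0.16, adjusted p = 0.0534). In all 3 of these receptors the groups did not overlap. Lag3 had 3.420, 1.803 and 1.862 CPM in shPgk1, against 4.103, 3.511 and 3.948 CPM in shNC libraries (−0.64 ± 0.25, adjusted p = 0.114), again without overlap. Pdcd1 had 13.96, 8.147 and 5.570 CPM in shPgk1, against 12.05, 11.42 and 12.77 CPM in shNC libraries (−0.32 ± 0.30, adjusted p = 0.459), and shPgk1 replicate 1 was the highest of the 6.

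Of the ligands, Pdcd1lg2 had 18.56, 8.973 and 10.41 CPM in shPgk1 libraries, against 33.88, 19.31 and 23.21 CPM in shNC libraries (−0.94 ± 0.31, adjusted p = 0.0775), without overlap. Cd274 had 129.2, 59.19 and 85.42 CPM in shPgk1, against 208.6, 136.8 and 116.7 CPM in shNC libraries (−0.68 ± 0.31, adjusted p = 0.161), and shPgk1 replicate 1 lay inside the shNC range. Pvr, Lgals9 and Nectin2 gave −0.08 ± 0.12, 0.02 ± 0.08 and −0.13 ± 0.12, with adjusted p of 0.633, 0.867 and 0.458.

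The count of calls over all cells rested on the test and on 1 library. DESeq2 called 4 of the 10, Ctla4, Havcr2, Pdcd1lg2 and Tigit, where it called 24.5% of all genes. Without shPgk1 replicate 1, edgeR called 5, Ctla4, Havcr2, Lag3, Pdcd1 and Pdcd1lg2, where it called 25.8% of all genes.

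**Figure D4:**
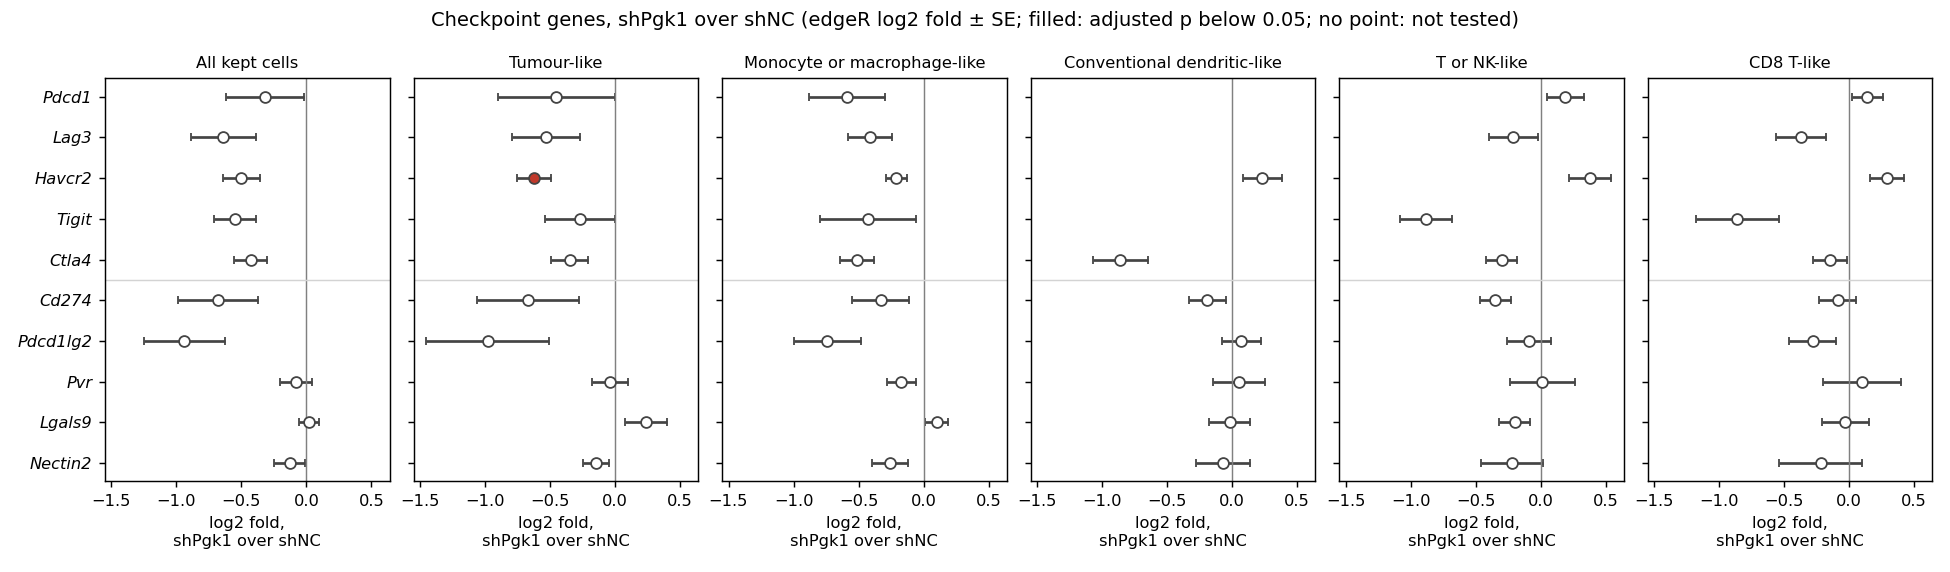
Log2 fold of shPgk1 over shNC libraries (edgeR, ± SE) for the 5 receptors (top) and 5 ligands (bottom) over all kept cells and in 5 classes or subsets. Filled points passed an adjusted p of 0.05, and genes without a point were too low to test. Havcr2 in tumour-like cells is the filled point, at −0.62, and its points in conventional dendritic-like and CD8 T-like cells lie on the other side of 0.

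Within lineage classes 1 call was made among the 10 genes over 8 classes, Havcr2 in tumour-like cells, where 9.32% of all genes passed. Havcr2 had 7.029, 6.021 and 5.515 CPM in tumour-like cells of shPgk1 libraries, against 10.71, 9.482 and 11.26 CPM in those of shNC libraries, and the groups did not overlap. It fell by 0.62 ± 0.13 on the log2 scale (adjusted p = 0.0306). Both tumour-like clusters, fitted apart after the first result was seen, gave the call. They are the same cells of the same libraries, split, so this is no independent support. Havcr2 fell by 0.75 ± 0.12 in the first (adjusted p = 0.0223, where 1.34% of all genes passed) and fell by 0.64 ± 0.16 in the second (adjusted p = 0.0315, where 11.0% passed). The call was lost without shNC replicate 2 (adjusted p = 0.093), shNC replicate 3 (0.0788), shPgk1 replicate 2 (0.0955) or shPgk1 replicate 3 (0.137).

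Macrophage markers were set beside this call. In tumour-like cells the 8 macrophage markers summed to 1780, 994.1 and 1004 CPM in shPgk1 libraries, against 1789, 1885 and 2861 CPM in shNC libraries, and none of them was at 0. All 8 had a negative log2 fold, between −0.75 and −0.24 with a median of −0.48, and 1, Mrc1, passed. For 3 of the 8 the groups did not overlap, where 38.7% of all genes did not. Csf1r gave −0.47 ± 0.21 (adjusted p = 0.141) and Cd68 −0.63 ± 0.22 (adjusted p = 0.0849). Havcr2 in tumour-like cells stood at 26.7% of its level over all cells, beside 15.4% to 21.4% for the 8 macrophage markers. The part of macrophage RNA in the Havcr2 difference was not tested.

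The groups did not overlap in tumour-like cells for 3 further genes, Lag3, Ctla4 and Nectin2, 4 of 10 in all, all lower, where 38.7% of all genes did not overlap. Ctla4 had 33.22, 26.62 and 26.35 CPM in tumour-like cells of shPgk1 libraries, against 37.35, 35.22 and 48.63 CPM in those of shNC libraries (−0.35 ± 0.14). Nectin2 had 36.50, 35.33 and 35.97 CPM in shPgk1, against 40.33, 42.26 and 50.02 CPM in shNC libraries (−0.15 ± 0.10). The 8 T cell markers in the same cells summed to 31.08, 17.35 and 15.19 CPM in shPgk1 libraries, against 32.78, 25.27 and 37.54 CPM in shNC libraries, all 8 with a negative log2 fold and none called. Cd274 in tumour-like cells had 43.79, 17.35 and 30.74 CPM in shPgk1, against 72.33, 50.39 and 38.67 CPM in shNC libraries, and gave −0.67 ± 0.39 with overlap.

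In macrophage-like cells none of the 10 genes passed, where 0.540% of all genes did, and 4 had an unadjusted p below 0.05. Ctla4 had 20.34, 15.41 and 17.40 CPM in shPgk1 libraries, against 22.98, 22.16 and 27.91 CPM in shNC libraries (−0.51 ± 0.13, adjusted p = 0.0999). Pdcd1lg2 had 35.58, 23.24 and 23.41 CPM in shPgk1, against 58.62, 32.09 and 43.38 CPM in shNC libraries (−0.74 ± 0.26, adjusted p = 0.213), with overlap. Cd274 had 264.8, 171.5 and 208.9 CPM in shPgk1, against 349.6, 222.1 and 215.4 CPM in shNC libraries (−0.33 ± 0.22, adjusted p = 0.472). Lag3 and Ctla4, 2 of 10, did not overlap between the groups, where 25.5% of all genes did not.

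The other classes gave no call among the genes that could be tested. The shares of all genes called there were 1.63% in neutrophil-like (7 of the 10 tested), 0.0114% in conventional dendritic-like (7 tested), 0.0846% in T or NK-like (10 tested), 0.0326% in fibroblast-like (8 tested), 0.0557% in endothelial-like (6 tested) and 0.272% in mature dendritic-like cells (7 tested). In T or NK-like cells Tigit had 6.863, 10.18 and 9.556 CPM in shPgk1 libraries, against 15.62, 18.58 and 13.81 CPM in shNC libraries (−0.88 ± 0.20, adjusted p = 0.159). Tigit, Ctla4 and Cd274, 3 of 10, lay lower without overlap there, where 13.1% of all genes did not overlap. In the 1068 T or NK-like cells outside the gates, Tigit ranged from 6.338 to 11.15 CPM in shPgk1 and from 16.66 to 22.27 CPM in shNC libraries. That set was not tested. In regulatory T-like and Foxp3-negative CD4 T-like cells the groups overlapped for Tigit. CD8 T-like cells, which had the least Tigit, made up 40.8%, 51.3% and 30.4% of T or NK-like cells in shPgk1 libraries and 25.7%, 21.5% and 48.0% in shNC libraries, and their part in the Tigit values was not tested.

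In T and NK subsets no call was made either. In CD8 T-like cells, where 0.182% of all genes passed, Havcr2 had 82.54, 103.8 and 86.24 CPM in shPgk1 libraries, against 73.67, 65.98 and 76.58 CPM in shNC libraries (0.29 ± 0.13, adjusted p = 0.566). Tigit had 3.806, 5.838 and 6.795 CPM in shPgk1, against 10.69, 7.390 and 9.430 CPM in shNC libraries (−0.86 ± 0.32, adjusted p = 0.414). These 2 did not overlap, in opposite directions, where 13.3% of all genes did not overlap. Pdcd1 had 241.2, 284.4 and 241.5 CPM in shPgk1, against 205.6, 253.4 and 221.7 CPM in shNC libraries (0.14 ± 0.12), with overlap. Ctla4 gave −0.15 ± 0.13 and Lag3 −0.37 ± 0.19. The band of 2 SE on each side ran from −0.11 to 0.38 for Pdcd1 and from −0.40 to 0.10 for Ctla4.

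In regulatory T-like cells 8 of the 10 were tested and the lowest adjusted p was 0.973, where 0.0427% of all genes passed. Ctla4 had 981.8, 866.8 and 718.6 CPM in shPgk1 libraries, against 844.7, 844.7 and 1107 CPM in shNC libraries (−0.15 ± 0.18), with overlap. In Foxp3-negative CD4 T-like cells, of which 1 library held 20, 4 of the 10 were tested, where 0.0259% of all genes passed. Cd274 had 87.75, 62.86 and 86.13 CPM in shPgk1, against 174.8, 134.8 and 174.4 CPM in shNC libraries (−1.02 ± 0.28, adjusted p = 0.438). Ctla4 had 339.6, 293.4 and 160.5 CPM in shPgk1, against 396.7, 384.3 and 560.2 CPM in shNC libraries (−0.80 ± 0.28, adjusted p = 0.615), and the groups did not overlap for either gene, as for 13.3% of all genes tested there. NK-like cells, with 8 in 1 library, were not tested between the groups.

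Whether the shPgk1 difference itself differed between tumour-like and macrophage-like cells was tested as an interaction, with library as a term. None of the 10 passed, where 2.23% of all genes did. Havcr2 gave −0.45 ± 0.14 (adjusted p = 0.102), tumour-like minus macrophage-like, and Cd274 −0.42 ± 0.17 (adjusted p = 0.216), the 2 with an unadjusted p below 0.05. The other 8 lay between −0.25 and 0.13.

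Havcr2 went in opposite directions in different sets of cells. In conventional dendritic-like cells it had 97.21, 105.7 and 100.1 CPM in shPgk1 libraries, against 94.71, 80.49 and 73.40 CPM in shNC libraries, all higher and without overlap, as in CD8 T-like cells. In fibroblast-like cells it had 7.545, 5.755 and 8.696 CPM in shPgk1, against 11.06, 8.873 and 8.867 CPM in shNC libraries, all lower. Over all the checkpoint genes tested, the lowest adjusted p in edgeR was 0.158 in conventional dendritic-like and 0.495 in fibroblast-like cells. These are the lowest of any checkpoint gene and need not belong to Havcr2, which passed in neither class. In conventional dendritic-like cells 1 of the 7 genes tested had an unadjusted p below 0.05, and Ctla4 lay lower there without overlap. The share of all genes without overlap is not given for conventional dendritic-like and fibroblast-like cells, so their lack of overlap has no background beside it. That share differed between sets, at 13.3% in CD8 T-like and 38.7% in tumour-like cells. For the 4 pairs of sets with opposite directions, interaction tests were added after these values were seen. The pairs were chosen by that pattern in the same counts, so a large difference was built in. The adjusted p covers the genes of a pair and not that choice, so the tests give no independent support. The difference between CD8 T-like and tumour-like cells was 0.93 ± 0.17 (adjusted p = 0.00384, where 1.52% of all genes passed). The difference between conventional dendritic-like and tumour-like cells was 0.90 ± 0.20 (adjusted p = 0.0271, where 0.348% passed). Against fibroblast-like cells the differences were 0.72 ± 0.25 for CD8 T-like (adjusted p = 0.444, where 0.0716% passed) and 0.69 ± 0.24 for conventional dendritic-like cells (adjusted p = 0.539, where 0.101% passed). In CD8 T-like cells the macrophage markers summed to 1814, 1300 and 1081 CPM in shPgk1 libraries, against 1692, 1623 and 2560 CPM in shNC libraries, 2 ranges that overlapped. In conventional dendritic-like cells they summed to 3284, 4119 and 4082 CPM in shPgk1, against 2623, 2634 and 3834 CPM in shNC libraries, and their part in the Havcr2 values there was not tested.

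**Figure D5:**
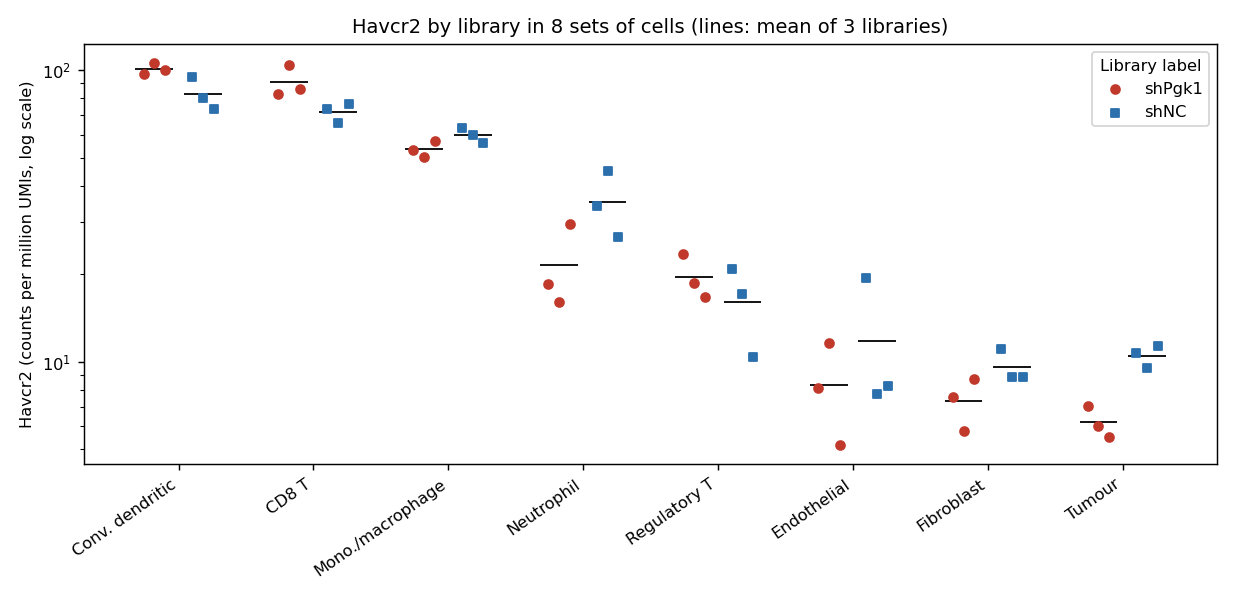
Havcr2 level (CPM, log axis) in 8 classes or subsets, with 1 point per library, shPgk1 left of shNC, and lines for the mean of 3 libraries. The shPgk1 points lie above the shNC points in conventional dendritic-like and CD8 T-like cells and below them in fibroblast-like and tumour-like cells.

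The same 4 lists were counted between shPgk1 and shNC libraries. Over all cells, where 16.7% of all genes passed, 2 of 18 other receptors were called, both costimulatory TNF receptors and both lower: Tnfrsf18 at −0.93 ± 0.21 (adjusted p = 0.0334) and Tnfrsf9 at −0.64 ± 0.15 (adjusted p = 0.0356). The list's median was −0.42, beside −0.05 over all genes. Of 20 other ligands tested, Cd200 (−0.93 ± 0.15, adjusted p = 0.0183) and Cd80 (−0.46 ± 0.07, adjusted p = 0.0188) fell and Hmgb1 rose (0.43 ± 0.08, adjusted p = 0.0217). Hmgb1 is an abundant chromatin protein that also binds TIM-3. Of 16 transcription factors, Irf4 (−0.75 ± 0.13), Nr4a1 (−0.75 ± 0.18) and Prdm1 (−0.61 ± 0.11) fell and the list's median was −0.59, and of 18 interferon gamma response genes Ifngr1, a receptor chain, fell (−0.38 ± 0.10) and the median was −0.12. Some fits that left out 1 library lost these 9 calls of the 4 lists, along with nearly all calls over all genes. None of the 9 held without shNC replicate 2, shPgk1 replicate 2 or shPgk1 replicate 3, where 3, 9 and 3 of all genes passed, 5 held without shNC replicate 3 and 6 without shNC replicate 1.

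In tumour-like cells the list medians were −0.61 for 17 other receptors and −0.53 for 16 transcription factors, beside −0.03 over all genes, of which 9.32% passed. Tnfrsf4 and Tnfrsf9 fell there, by 1.12 ± 0.30 (adjusted p = 0.046) and 0.82 ± 0.18 (adjusted p = 0.0379). Cd80 fell by 0.66 ± 0.16 (adjusted p = 0.0421), Hmgb1 rose by 0.39 ± 0.11 (adjusted p = 0.0496), and Ikzf2, Irf4 and Nr4a1 fell among the transcription factors. Some of these levels were low, with Irf4 at 0.506 to 1.36 CPM over the 6 libraries, Tnfrsf4 at 0.769 to 3.52 and Cd80 at 1.94 to 4.06. Of 18 interferon gamma response genes, Gbp5 fell by 1.14 ± 0.27 (adjusted p = 0.0463) and Nlrc5, the activator of MHC class I genes, fell by 0.59 ± 0.14 (adjusted p = 0.0374). None of these 9 calls held without shNC replicate 2, shNC replicate 3, shPgk1 replicate 2 or shPgk1 replicate 3, where 18, 202, 70 and 5 of all genes passed, against 1521 with all 6 libraries, and 4 held with the replicate number as a block. The 8 T cell and 8 macrophage markers given above had negative log2 folds in the same cells, and their part in these values was not tested.

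In CD8 T-like cells, where 0.182% of all genes passed, 1 of 16 other receptors did. Tnfrsf4 had 46.86, 28.77 and 32.93 CPM in shPgk1 libraries, against 95.05, 100.8 and 74.29 CPM in shNC libraries, without overlap, and fell by 1.30 ± 0.19 (adjusted p = 0.00837), a call lost without shNC replicate 2 or shPgk1 replicate 3. No gene of the 4 lists passed in macrophage-like, dendritic-like, T or NK-like, neutrophil-like, fibroblast-like, endothelial-like, regulatory T-like or Foxp3-negative CD4 T-like cells. The interaction of tumour-like with macrophage-like cells tested 18 other receptors, 20 other ligands, 16 transcription factors and 18 interferon gamma response genes. Of these, 5 passed, where 2.23% of all genes did, all more negative in tumour-like cells: the ectonucleotidase Entpd1 (−0.77 ± 0.15), the CTLA-4 ligand Cd86 (−0.82 ± 0.19), Nr4a1 (−0.61 ± 0.13), the MHC class II activator Ciita (−0.58 ± 0.13) and Nlrc5 (−0.51 ± 0.12), with adjusted p between 0.0121 and 0.0373. The 8 macrophage markers also had negative log2 folds in tumour-like cells, and their part in these values was not tested.

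The genes most like each checkpoint gene were found from log2(CPM + 1) of mean levels over 14 classes and subsets among 12481 genes, as a description without a test. Pdcd1 was closest to the T cell receptor chain Trbc2 (r = 0.991) and the chemokine receptor Cxcr6 (0.969), and Ctla4 to Tox (0.969) and Icos (0.967). Tigit was closest to Ppm1b (0.974), Dgka (0.974) and Gabpb2 (0.973), and Lag3 to Xlr4b (0.961). Havcr2 had lower values, with Gpd2 at 0.904, Rgs1 at 0.898 and Evi2a at 0.896. Among the ligands, Cd274 was closest to Aph1c (0.931), Rtf2 (0.931) and Dusp16 (0.926), Pdcd1lg2 to Mkrn1 (0.968) and Cytip (0.958), and Nectin2 to Cltb (0.943). Pvr reached 0.924 with Fbxo6, and Lgals9 had the lowest best match, Mindy1, at 0.866. Between the 10 genes themselves, Ctla4 with Tigit gave 0.933, Pdcd1 with Ctla4 0.906 and Pdcd1 with Havcr2 0.199. The 14 points share libraries and some sets hold other sets, so they are not independent.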

How the data were processed

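Raw UMI counts per gene and barcode were deposited by the authors as 1 matrix for each of 6 libraries, 3 per group. Per the labels' protocols, droplet libraries (TaiM4, DNBSEQ) were made from suspensions of over 80% viability; per the file headers PISA 0.12 was used, and per the submitters' processing notes Seurat 4. The notes name GRCh38, but 27957 of 28649 gene names (97.6%) matched mouse GENCODE M21; aligner, annotation and strand of counting: not given in the sources used here. Sequencing depth, 78778073 to 128933960 UMIs a library, limits low genes most.

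Of 42902 barcodes, 643 with under 500 UMIs, under 300 genes or over 20% mitochondrial UMIs were left out, and 825 with a Scrublet score over 0.25 were removed as doublets, a limit set after the scores were seen. Barcode names are serial numbers, so barcodes shared between libraries could not be counted. The 10 genes were kept out of the 2000 variable genes used for clustering (scanpy 1.11.5, 30 components, 15 neighbours, leidenalg 0.10.2, resolution 0.5, seed 1). Of 18 clusters 15 were named from marker lists and 3, with 4912 cells, stayed unnamed. T and NK subsets were gated on at least 1 UMI of Cd8a or Cd8b1, Foxp3, Cd4 or Ncr1.

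Counts were summed per library and set, at least 20 cells in every library (the comparison between subsets also took NK-like cells, 8 to 29 a library), and tested with edgeR 4.0.16 (TMM, filterByExpr, robust quasi-likelihood; R 4.3.3) over all genes with Benjamini-Hochberg adjustment at 0.05; DESeq2 1.42.0 was an alternative. The test was checked on simulated data, where 200 of 19630 tested genes changed by 1 on the log2 scale over all cells and 87.5% were recovered with 7 false calls. In the other comparisons simulated, 81.5% (CD8 T-like) to 100% (regulatory T over CD8 T-like) were recovered with 4 to 10 false calls. The changed genes were drawn from those with higher counts, and a single spread was used for all genes. The check therefore does not give the power for smaller changes or low genes. Exact permutation tests used scipy 1.17.1 (Python 3.11.15). Groups came from the titles; the design text speaks of biological replicates but no label names separate animals, so the p-values reflect only how far these samples spread, which may be technical. All library pairs differed beyond sampling noise (chi-square per degree of freedom 24.1 to 273). The 10 genes were named throughout, other genes when past the threshold in their list or among the 3 most like a checkpoint gene. The genes, lists and tests were chosen with earlier results of these data known. Columns of other samples numbered 0. Reads of near-identical or overlapping genes cannot be told apart in these counts. A result of the interferon gamma list is not reported here.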

Additional observations from a re-analysis of the deposited data

Results flagged for a closer look

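The shPgk1 difference of Havcr2 went in opposite directions in 4 pairs of cell sets, with no overlap between the libraries of the groups in any of them. The pairs were chosen by that pattern in the same counts, so a large difference between the sets was built in. The adjusted p covers the genes of a pair and not that choice. The difference itself was tested after the pattern was seen (edgeR, adjusted over all genes). It was 0.93 ± 0.17 on the log2 scale between CD8 T-like and tumour-like cells (adjusted p = 0.00384) and 0.90 ± 0.20 between conventional dendritic-like and tumour-like cells (adjusted p = 0.0271). It was 0.72 ± 0.25 between CD8 T-like and fibroblast-like cells (adjusted p = 0.444) and 0.69 ± 0.24 between conventional dendritic-like and fibroblast-like cells (adjusted p = 0.539), neither past the threshold. In each pair Havcr2 was higher in all 3 libraries labelled shPgk1 in the first set of cells and lower in all 3 in the second, each relative to all 3 libraries labelled shNC. The groups did not overlap for 13.3% of all genes in CD8 T-like and 38.7% in tumour-like cells. That share is not given for conventional dendritic-like and fibroblast-like cells, so the lack of overlap there has no background beside it. In tumour-like cells the summed macrophage markers were 1780, 994.1 and 1004 CPM in shPgk1 libraries, against 1789, 1885 and 2861 CPM in shNC libraries, and their part in these differences was not tested.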

How the results depend on the processing

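Over all cells, where edgeR called 0 of the 10 genes, DESeq2 called 4 (24.5% of all genes), the fit with the replicate number as a block called 3 (Cd274, Havcr2 and Pdcd1lg2; 13.5% of all genes), and leaving out 1 library gave 0 to 5, the 5 without shPgk1 replicate 1. The replicate numbers were not taken as pairs: deviations of same-numbered libraries correlated at 0.214, 0.0793 and −0.105, and shPgk1 replicate 2 correlated best with shNC replicate 3, at 0.3. In the classes, with 1 call where 2.04% of all tests in 8 classes passed, DESeq2 gave 3 (4.56%), no filter on low counts 3 (2.73%), the replicate block 2 (0.973%), gates without clusters 2 (6.58%, in fewer classes) and leaving out 1 library 0 to 3. In the T and NK subsets 0 calls stood under all alternatives run. Between subsets, a gate of 2 UMIs gave 2 calls in place of 1 for regulatory T over Foxp3-negative CD4 T-like cells, the second being Pdcd1, and leaving out 1 library gave 4 to 7 for regulatory T over CD8 T, 4 to 6 for CD8 T over NK, 4 to 6 for CD8 T over Foxp3-negative CD4 T and 1 throughout for regulatory T over Foxp3-negative CD4 T-like cells. The shPgk1 minus shNC difference in CD8 T-like cells with at least 2 receptors was 0.1 percentage points thinned to 2000 UMIs and 2.717 thinned to 5000, and −1.303 to 0.01 leaving out 1 library. With at least 3 receptors it was 1.747 thinned to 2000 UMIs (exact permutation p = 0.1, the smallest possible) and −1.672 to 0.49 leaving out 1 library. It was −3.65 thinned to 5000 UMIs (exact permutation p = 0.3) and −4.047 unthinned (exact permutation p = 0.7), so its sign changed with depth. Each thinning was a single random draw, with a separate draw for the pooled shares. With gates in place of clusters, mean levels moved for Pdcd1 in T or NK cells (127 CPM with gates, 180 with clusters), Lag3 there (16.6 and 20.2), Havcr2 in mature dendritic cells (39.7 and 75.8), Cd274 there (572 and 394), Pvr there (59.6 and 46.1), Lgals9 in endothelial cells (139 and 250) and Nectin2 there (79.5 and 146). Both of the last 2 then overlapped the lineage next in order. Among the 6 gated lineages, which leave out neutrophil and conventional dendritic cells, the highest mean was in the same lineage for 9 of the 10 genes, and for Havcr2 it became macrophage. Among single genes, 2450 values under alternatives stayed on their side of the threshold or within 1 SD, 232 lost and 24 gained the call, and 81 moved. A value that moved either changed sign where the main fit had no call or shifted in level by 1 SD or more. No value called in the main fit changed sign. Genes called over all cells, 3250, came to 3 without shNC replicate 2, 9 without shPgk1 replicate 2 and 3 without shPgk1 replicate 3. Values near 1 CPM, as for Tigit and Lag3 outside T cells and Irf4 in tumour-like cells, rest on few UMIs.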
